A study of Mus musculus with 16 samples.

Results

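The genes described here are 10 named components of regulated granule release and of the signals that trigger it: the vesicle GTPases Rab3d, Rab26, Rab27a and Rab27b, the membrane fusion genes Vamp8, Stx3 and Stxbp2, the calcium sensor Syt7, and the ion channel genes Kcnn4 and Cftr. They were chosen by name for their role and not by a measured value, though earlier results of these data were known. They are 10 of the 55414 genes in the deposited count table. All 10 were found, and 9 of them were among the 11809 genes that passed the filter on low counts and were tested. Rab26 did not pass it.

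RNA was sequenced from Paneth cells sorted by flow cytometry from the small intestine of C57BL/6J mice. The first injection was PBS, the vehicle, or DEX, the usual short name of dexamethasone, a synthetic glucocorticoid (the labels do not spell it out). The second injection followed 1 h later and was PBS or tumour necrosis factor (TNF), and the cells were taken 3 h after it. The groups are named by both injections (PBS+PBS and DEX+PBS without TNF, PBS+TNF and DEX+TNF with it) and hold 4 libraries each, given by the study as biological replicates. The study describes its samples as cells of individual mice, while the labels do not tie a library to an animal, so the p-values measure the spread between these libraries. The sources used here do not give sex or age per group, and the labels name no transgene or deletion.

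Paneth cells store antimicrobial proteins in large apical granules and release them by regulated exocytosis. In such cells Rab GTPases of the Rab3 and Rab27 families mark and tether the granules, and SNARE proteins on the granule (a VAMP) and on the target membrane (a syntaxin with a SNAP-25 relative) zip together to fuse them. Proteins of the Munc18 family, such as the product of Stxbp2, hold and guide the syntaxin, and synaptotagmins respond to calcium. Acetylcholine acting on muscarinic receptors is a classical trigger in secretory epithelia: it raises calcium, and calcium-gated potassium channels and apical chloride channels then drive the fluid that carries the secretion.

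Stx3 carries the clearest result below, so the bases before its start are shown next to those of Nfkbia, the NF-kB inhibitor gene used to check the TNF injection. Both are from the RefSeq promoter table (GRCm38.p6, minus strand, the 250 bases before the start, 5′ to 3′), Nfkbia at chr12:55492648-55492897 and Stx3 at chr19:11819404-11819653. Capitals mark the NF-kB consensus match of Nfkbia, at positions -29 to -20 with -1 as the last base before the start, and in Stx3 the bases at the same distance.
Nfkbia: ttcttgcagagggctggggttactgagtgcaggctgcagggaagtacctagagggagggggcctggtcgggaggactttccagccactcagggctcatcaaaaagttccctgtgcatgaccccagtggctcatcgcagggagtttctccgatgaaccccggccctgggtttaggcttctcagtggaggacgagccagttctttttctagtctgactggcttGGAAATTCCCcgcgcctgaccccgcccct
Stx3: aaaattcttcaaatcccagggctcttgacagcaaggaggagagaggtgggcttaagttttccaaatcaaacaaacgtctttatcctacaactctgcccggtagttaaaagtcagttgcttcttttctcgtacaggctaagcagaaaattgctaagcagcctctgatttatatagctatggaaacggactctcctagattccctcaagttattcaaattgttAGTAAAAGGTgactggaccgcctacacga

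The NF-kB consensus was searched on both strands of windows that also hold the first 50 transcribed bases, and 4.51% of 32851 RefSeq promoters hold it. Of the 10 members 7 have a window in the table, and 0 of the 7 held a match. The E-box letters CAGCTG (in 16.3% of all promoters) and CATATG (3.91%) were found in 1 of the 7 each, in both cases Rab27a. The letters ACGTG (19.6% of promoters) were in 4 of the 7 (Rab27a, Vamp8, Stxbp2 and Kcnn4), and AGAACA (19.0%), part of the glucocorticoid response element, was in 1, Stxbp2. Stx3, Rab3d and Cftr held none of these letters. The counts are of genes and the shares are of windows. Rab27a has 2 windows, and all its matches were in window 2. A match is a description of the letters, and its absence says only that they are not in this window.

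The libraries held between 7286307 and 15832111 counts. Levels are given as normalized CPM, the usual depth-scaled counts after scaling by TMM factors, which ran from 0.418 (PBS+TNF 1) and 0.503 (PBS+PBS 4) up to 1.502 (DEX+TNF 4). The 5 Paneth cell markers (Lyz1, Mmp7, Ang4, Itln1 and Defa24) together took 322300 to 463100 CPM of the library total, and the T cell marker Cd3e had 0 counts in all libraries. The summed markers of stromal cells (at most 0.821 CPM), red blood cells (at most 0.821 CPM) and pancreatic acinar cells (at most 1.92 CPM) were close to 0. Those of tuft cells ran from 0.165 to 856 CPM, of enterocytes from 4.52 to 400.3 CPM and of cycling cells from 11.02 to 184 CPM, each highest in DEX+TNF 4. Stem cell markers summed to 208 to 1825 CPM, highest in DEX+TNF 4 too, and goblet cell markers to 3219 to 10240 CPM, highest in PBS+TNF 2. Nfkbia was at 15.6 to 27.3 normalized CPM in the 8 libraries without TNF and at 277 to 337 in PBS+TNF. In DEX+TNF it was at 330, 382, 28.3 and 41.0 normalized CPM in libraries 1 to 4. Libraries 3 and 4 thus stand apart from their group, and results with DEX+TNF are also given without them. They are picked by low Nfkbia, the gene used to check the TNF injection, so the choice is not independent of the TNF response. Without them a TNF effect can grow, and a DEX effect on it can shrink, through this choice alone.

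**Figure D1:**
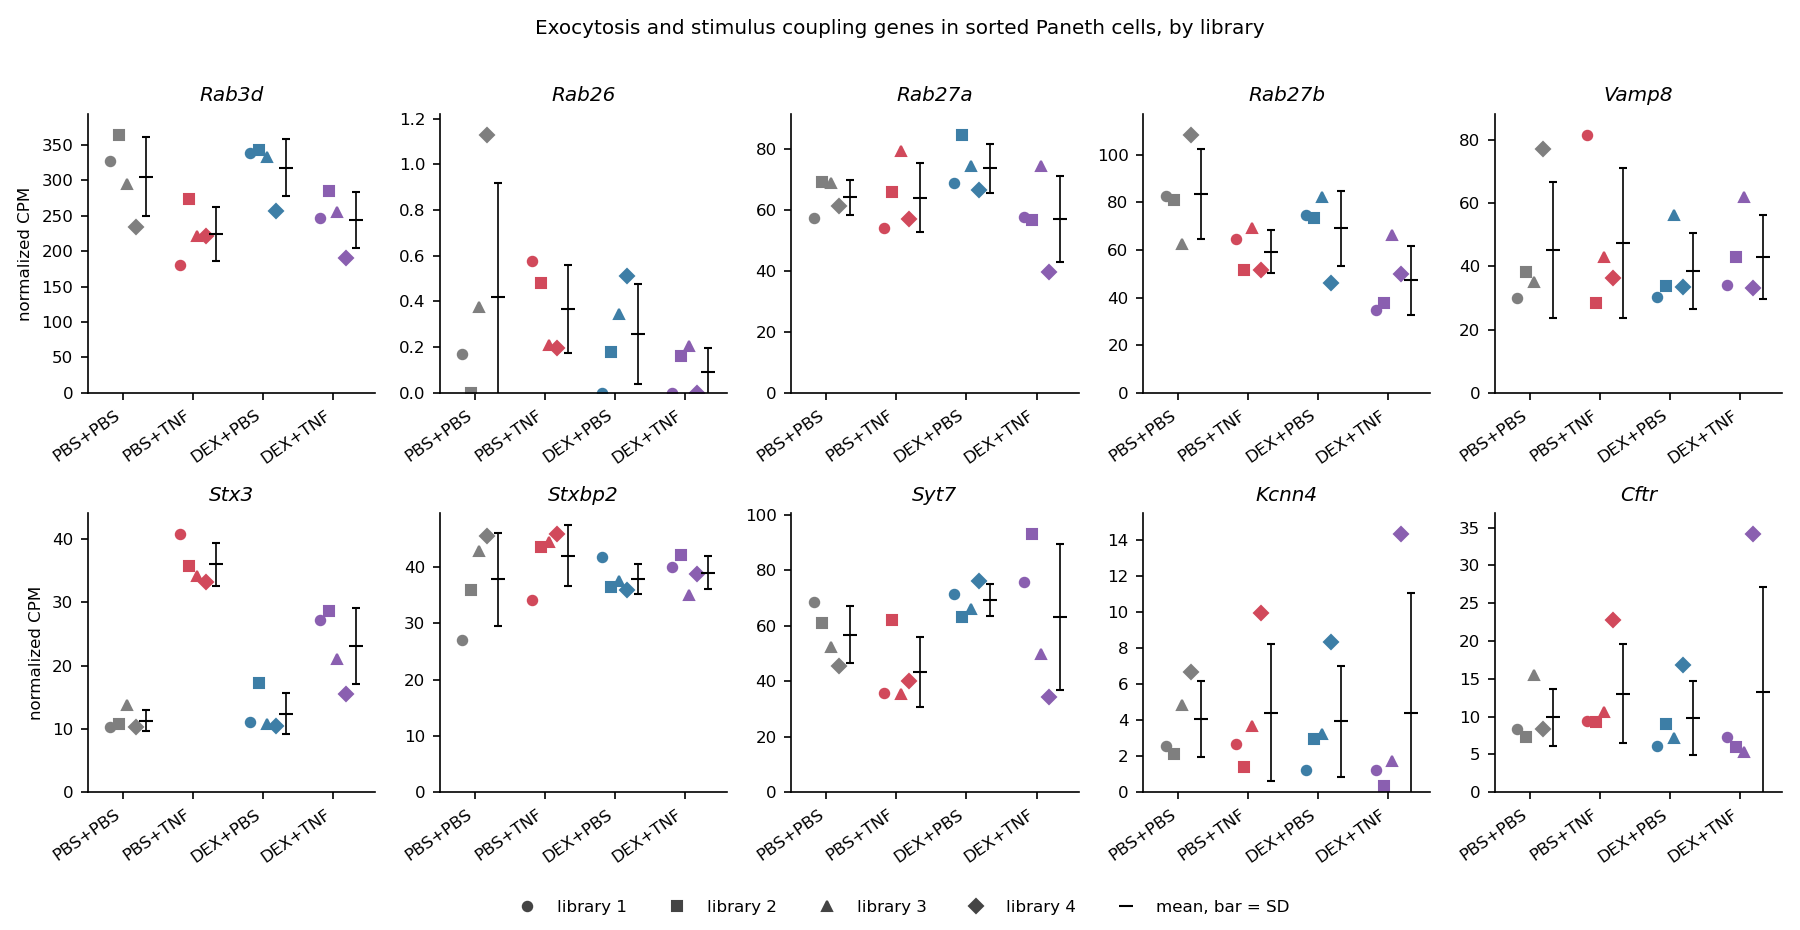
Normalized CPM of each of the 10 genes in every library, with a linear y axis from 0 in each panel and the injection group on the x axis. Each point is 1 library and its shape is the replicate number, and the black mark with its bar is the mean with the SD of the 4 libraries (bars that would pass below 0 end at the axis). Stx3 is the gene whose 4 PBS+TNF libraries (33.2 to 40.8) lie apart from the 4 PBS+PBS libraries (10.3 to 13.7), and Kcnn4 and Cftr are set by single libraries.

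Of the 9 tested members 1 was called between PBS+TNF and PBS+PBS, Stx3, which was about 3 times as high with TNF. A gene was called at an adjusted p under 0.05 in the quasi-likelihood test of edgeR, with Benjamini-Hochberg adjustment over all 11809 genes, and 12.5% of all genes were called in this comparison. The median log2 fold change of the 9 members was 0.06, beside -0.03 over all genes tested. No member was called in the other 3 pairwise comparisons, where few genes were called at all: 0.00847% for DEX alone (DEX+PBS versus PBS+PBS), 0.339% for DEX given TNF (DEX+TNF against PBS+TNF) and 0.339% for TNF given DEX (DEX+TNF against DEX+PBS). DESeq2 called 0, 0 and 1 member there, beside 0.0279%, 1.14% and 1.12% of all genes it fitted. An unadjusted p under 0.05 was found for 0, 1 and 2 of the 9 members, beside 224, 1408 and 1227 of all 11809 genes. In RNA from sorted cells a lower level can come from fewer cells of a kind or from less RNA in each, and these cannot be told apart.

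Stx3 (ENSMUSG00000041488, mm39 chr19:11752463-11796767, minus strand, protein-coding) encodes a syntaxin of the apical membrane of epithelial cells. It was at 10.3, 10.9, 13.7 and 10.3 normalized CPM in PBS+PBS libraries 1 to 4. In PBS+TNF it was at 40.8, 35.8, 34.2 and 33.2. The lowest library with TNF was more than 2 times the highest without it, and 19.5% of all tested genes had groups that did not overlap in either direction. The log2 fold change was 1.67 (SE 0.23, 95% interval 1.19 to 2.15, edgeR adjusted p = 0.000511), a 3.18-fold rise.

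This call held in 26 of 27 alternatives, with values from 1.56 to 1.78. The exception was the use of library totals alone (1.68, edgeR adjusted p = 0.0507), chosen after seeing the data. Without PBS+PBS 4 and PBS+TNF 1, the libraries with the lowest TMM factors, it was 1.57 (edgeR adjusted p = 0.00294). A ratio within a library does not depend on the scaling. Stx3 as a percentage of the Rab3d counts was 2.98 to 4.67 in the PBS+PBS libraries and 13.1 to 22.6 in the PBS+TNF libraries. Stx3 counts per Stxbp2 count were 0.227 to 0.380 and 0.723 to 1.198. Neither ratio overlapped between these groups. In the same comparison the stem cell markers Lgr5 (-1.58, SE 0.39, edgeR adjusted p = 0.0139) and Smoc2 (-0.80, SE 0.21, edgeR adjusted p = 0.0207) were lower with TNF, the 2 others of the 4 stem markers and all tested markers of Paneth, goblet, enterocyte, tuft and cycling cells were not called, and the goblet marker Fcgbp was lower in the averaged TNF effect (-2.07, edgeR adjusted p = 0.00525). The stem markers summed to 382 to 875 CPM in PBS+PBS and to 208 to 1192 in PBS+TNF, and their part in the Stx3 result was not tested.

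After DEX the TNF libraries were spread wider. Stx3 was at 11.2, 17.3, 10.8 and 10.5 normalized CPM in DEX+PBS and at 27.2, 28.6, 21.1 and 15.6 in DEX+TNF. The last of these lay within the range of DEX+PBS, so the groups overlapped, as they did for all but 4.68% of tested genes. The log2 fold change of DEX+TNF over DEX+PBS was 0.89 (SE 0.22, edgeR adjusted p = 0.112), which was not called. It was called by DESeq2 (0.89, adjusted p = 0.0195), without DEX+TNF 3 (0.93, edgeR adjusted p = 0.0455), without DEX+TNF 4 (1.06, adjusted p = 0.0172) and without both (1.16, adjusted p = 0.00297). In these settings 1.12%, 3.01%, 1.93% and 10.5% of all genes were called, beside 0.339% with all libraries in edgeR. The libraries left out were picked by low Nfkbia, so these calls are not independent of the TNF response. As a percentage of Rab3d counts, Stx3 was at 11.02, 10.1, 8.27 and 8.17 in DEX+TNF, all above the 3.23 to 5.06 of DEX+PBS, with Rab3d itself at a log2 fold change of -0.38 (not called) between these groups. Against the other fusion genes the ratios overlapped: Stx3 per Stxbp2 count was 0.402 to 0.680 in DEX+TNF and 0.267 to 0.475 in DEX+PBS, and Stx3 per Vamp8 count was 0.342 to 0.801 and 0.191 to 0.510.

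Given TNF, the 4 libraries with DEX had less Stx3 than the 4 with PBS, without overlap, which held for 6.38% of all genes. The log2 fold change of DEX+TNF over PBS+TNF was -0.64 (SE 0.22, edgeR adjusted p = 0.229) and was not called. Without DEX+TNF 3 and 4 it was -0.36 (edgeR adjusted p = 0.582). The test of whether the TNF response of Stx3 differed after DEX (the interaction) gave -0.78 (SE 0.31, edgeR adjusted p = 0.864), and 0% of all genes were called in it (642 had an unadjusted p under 0.05, and DESeq2 called 8). Without DEX+TNF 3 and 4 the interaction was -0.50. Averaged over both pretreatments, TNF raised Stx3 by 1.28 on the log2 scale (SE 0.16, edgeR adjusted p = 0.000124), where 15% of all genes were called. DEX alone gave 0.14 (SE 0.22, edgeR adjusted p = 1) over PBS+PBS, where the groups of 1.88% of all genes did not overlap, with a change of sign without DEX+PBS 2, whose 17.3 CPM is the highest of that group.

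**Figure D2:**
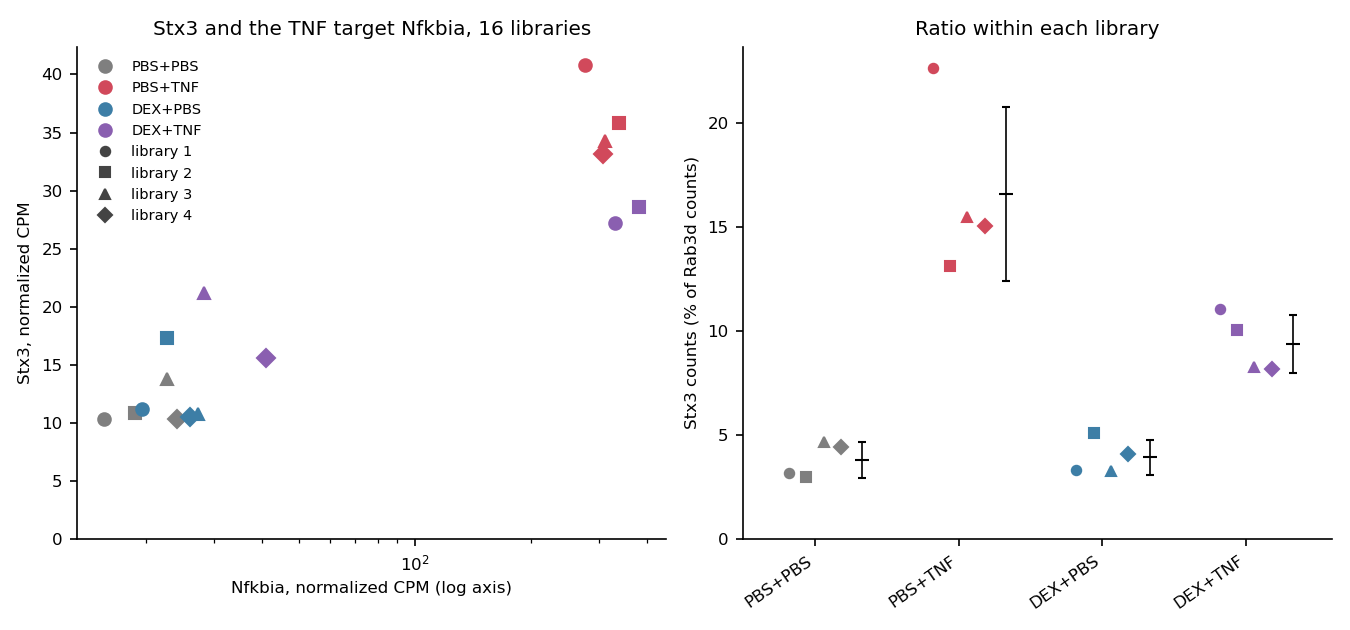
Left, Stx3 against Nfkbia in the 16 libraries, as normalized CPM with a log x axis, coloured by group and shaped by replicate number. Right, Stx3 counts as a percentage of Rab3d counts in each library, with the mean and SD of each group as a black mark and bar. In DEX+TNF libraries 3 and 4 Nfkbia (28.3 and 41.0 CPM) is above every library without TNF and far below the other libraries with TNF. Their Stx3 ratios to Rab3d (8.27 and 8.17) lie above all libraries without TNF. This does not hold for the ratios of DEX+TNF 4 to Stxbp2 (0.402, DEX+PBS 2 0.475) or of both to Vamp8.

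None of the 3 tested vesicle GTPases was called in any contrast. Rab3d (ENSMUSG00000019066, chromosome 9), the Rab3 protein of zymogen granules in exocrine cells, was at 327, 364, 294 and 233 normalized CPM in PBS+PBS and at 180, 273, 222 and 221 in PBS+TNF. In DEX+PBS it was at 338, 342, 333 and 257 and in DEX+TNF at 247, 285, 256 and 190. The group means were 305 ± 55.6, 224 ± 38.1, 318 ± 40.4 and 244 ± 39.4 (SD, n = 4), and the groups with and without TNF overlapped in both comparisons. The log2 fold change with TNF was -0.44 (SE 0.22, edgeR adjusted p = 0.208) after PBS and -0.38 (SE 0.22, edgeR adjusted p = 0.599) after DEX. Averaged over both it was -0.41 (SE 0.15, 95% interval -0.74 to -0.08, edgeR adjusted p = 0.0844), not called by edgeR and called by DESeq2 (adjusted p = 0.0217).

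Rab27a and Rab27b encode close relatives that tether secretory granules and lysosome-related organelles. Rab27b (ENSMUSG00000024511, chromosome 18) was at 82.6, 80.9, 62.4 and 109 normalized CPM in PBS+PBS, at 64.5, 51.7, 69.5 and 51.6 in PBS+TNF, at 74.6, 73.5, 82.1 and 46.1 in DEX+PBS and at 34.9, 37.8, 66.4 and 49.8 in DEX+TNF. The 2 lowest of the 16 libraries were DEX+TNF 1 and 2. Averaged over both pretreatments the TNF effect was -0.52 (SE 0.18, 95% interval -0.89 to -0.15, edgeR adjusted p = 0.0544), called by DESeq2 (adjusted p = 0.0336) and, without DEX+TNF 3 and 4, by edgeR (-0.71, adjusted p = 0.005998). In DEX+TNF over DEX+PBS it was -0.55 (SE 0.25, edgeR adjusted p = 0.445), and without DEX+TNF 3 and 4 it was -0.92 and called (adjusted p = 0.0384). Without these libraries, picked by low Nfkbia, 26.3% of all genes were called in the averaged effect and 10.5% in DEX+TNF over DEX+PBS.

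Rab27a (ENSMUSG00000032202, chromosome 9) ran from 57.2 to 69.1 normalized CPM (PBS+PBS) and from 54.1 to 79.3 (PBS+TNF) without DEX. With DEX it ran from 66.5 to 84.8 (DEX+PBS) and from 39.6 to 74.4 (DEX+TNF). Its log2 fold change with TNF after PBS was below 0.01 in size (95% interval -0.43 to 0.43, edgeR adjusted p = 1). After DEX it was -0.37 (SE 0.20, edgeR adjusted p = 0.576). Rab27a counts per Rab27b count were 0.564 to 1.11 (PBS+PBS), 0.839 to 1.28 (PBS+TNF), 0.905 to 1.44 (DEX+PBS) and 0.795 to 1.65 (DEX+TNF), so the balance of both genes overlapped between all groups.

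Rab26 (ENSMUSG00000079657, chromosome 17), which in other exocrine cells takes part in the maturation of large granules, had 56 counts over all 16 libraries and at most 10 in 1 of them. It had 0 counts in 4 libraries, which allows up to 0.412 CPM in DEX+PBS 1, the shallowest of them (3 counts of its total). Mean levels were 0.419 ± 0.498 normalized CPM in PBS+PBS, 0.367 ± 0.192 in PBS+TNF, 0.259 ± 0.219 in DEX+PBS and 0.0915 ± 0.107 in DEX+TNF (SD, n = 4). A difference between groups was not detectable at this depth.

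Neither of the other 2 fusion genes was called in any contrast. Stxbp2 (ENSMUSG00000004626, chromosome 8), the Munc18 protein that binds syntaxins in granule-bearing cells, was at 27.1, 35.9, 42.8 and 45.5 normalized CPM in PBS+PBS and at 34.1, 43.6, 44.5 and 45.9 in PBS+TNF. It ranged from 35.9 to 41.9 with DEX alone and from 35.1 to 42.1 with both agents. Its change with TNF after PBS was 0.16 on the log2 scale (SE 0.18, 95% interval -0.23 to 0.54, edgeR adjusted p = 0.657), an interval below that of Stx3. The difference between the genes was not tested beyond the ratio of their counts above.

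Vamp8 (ENSMUSG00000050732, chromosome 6), the granule SNARE of many exocrine and blood cells, was at 30.1, 38.2, 35.1 and 77.0 normalized CPM in PBS+PBS and at 81.7, 28.4, 42.8 and 36.2 in PBS+TNF. The 2 highest of all 16 libraries were thus PBS+PBS 4 and PBS+TNF 1, those with the lowest TMM factors. As plain CPM of the library totals they were at 38.7 and 34.1, inside the range of the other libraries (31.3 to 52.2). DEX+PBS held 30.5, 33.9, 56.2 and 33.4 normalized CPM and DEX+TNF 34.0, 43.1, 61.9 and 33.1. The log2 fold change with TNF was 0.06 (SE 0.35, 95% interval -0.68 to 0.81, edgeR adjusted p = 0.946) after PBS and 0.16 (SE 0.35, edgeR adjusted p = 0.977) after DEX.

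Syt7 (ENSMUSG00000024743, chromosome 19) encodes a synaptotagmin with high affinity for calcium. It was at 68.7, 60.8, 52.3 and 45.3 normalized CPM in PBS+PBS, at 35.6, 62.2, 35.4 and 40.2 in PBS+TNF, at 71.5, 63.1, 66.1 and 76.2 in DEX+PBS and at 75.8, 93.1, 49.7 and 34.3 in DEX+TNF. DEX+PBS held the tightest group, and DEX+TNF spanned the lowest and the highest library of all. Averaged over both second injections, DEX gave 0.41 (SE 0.19, 95% interval 0.00355 to 0.823, edgeR adjusted p = 0.620), which was not called, beside 0.186% of all genes called. No member was called in that effect by edgeR or DESeq2, and 1 had an unadjusted p under 0.05, beside 940 of all 11809 genes. DEX+TNF over PBS+TNF gave 0.54 (SE 0.28, edgeR adjusted p = 0.456), and 0.96 without DEX+TNF 3 and 4 (adjusted p = 0.269). TNF after PBS gave -0.39 (SE 0.28, edgeR adjusted p = 0.411).

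**Figure D3:**
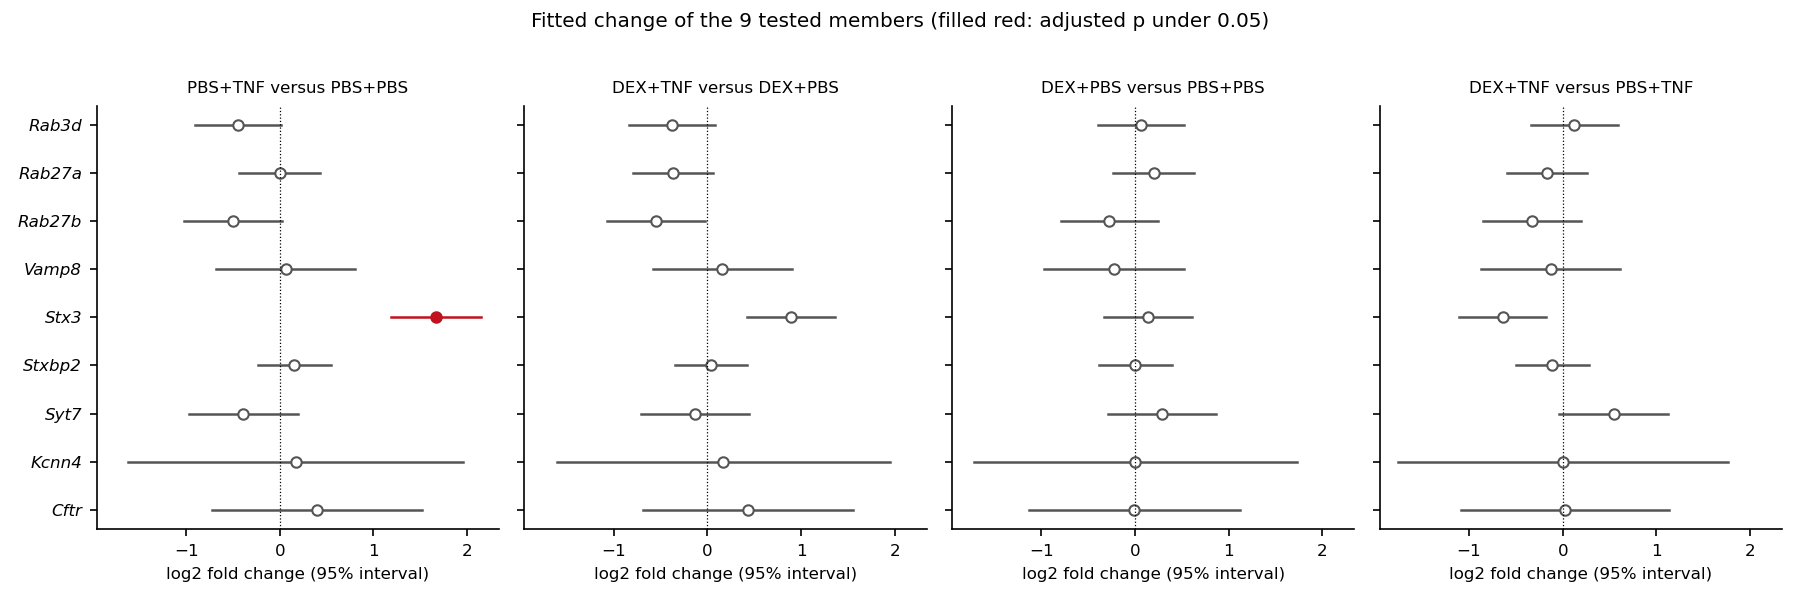
Log2 fold change of the 9 tested members in the 4 pairwise comparisons (1 panel each, same x axis), as a point with its 95% interval from the edgeR fit. Red filled points passed an adjusted p under 0.05: Stx3 in PBS+TNF versus PBS+PBS (1.67) is the sole one. The intervals of Kcnn4 and Cftr are the widest, and those of Stxbp2 and Rab27a among the narrowest.

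The ion channel genes differed between single libraries more than between groups. Kcnn4 (ENSMUSG00000054342, chromosome 7), a calcium-gated potassium channel, was at 2.57, 2.11, 4.86 and 6.66 normalized CPM in PBS+PBS and at 2.697, 1.39, 3.66 and 9.95 in PBS+TNF. It was at 1.21, 2.95, 3.21 and 8.36 in DEX+PBS and at 1.21, 0.323, 1.74 and 14.4 in DEX+TNF, where library 4 held 288 of 324 counts. Library 4 was the highest of each group on this scale. As CPM of the library total, PBS+PBS 3 (6.365) was above PBS+PBS 4 (3.348). The change of Kcnn4 with TNF after PBS was 0.17 on the log2 scale (SE 0.85, 95% interval -1.62 to 1.96, edgeR adjusted p = 0.939). After DEX the value was 0.17 (SE 0.84) with all libraries and -2.38 (SE 0.92, edgeR adjusted p = 0.118) without DEX+TNF 3 and 4. That setting drops the high library of DEX+TNF and keeps the high library of DEX+PBS (8.36), so it is not a balanced comparison.

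Cftr (ENSMUSG00000041301, chromosome 6), the chloride and bicarbonate channel of apical membranes, was at 8.31, 7.34, 15.5 and 8.42 normalized CPM in PBS+PBS and at 9.44, 9.28, 10.5 and 22.8 in PBS+TNF. In DEX+PBS it was at 6.07, 8.98, 7.22 and 16.9 and in DEX+TNF at 7.34, 5.98, 5.31 and 34.2. In each group 1 library was high and the 3 others lay between 5.31 and 10.5. Its log2 fold change with TNF was 0.40 (SE 0.53, 95% interval -0.72 to 1.52, edgeR adjusted p = 0.702) after PBS. After DEX it was 0.43 (SE 0.53, edgeR adjusted p = 0.904) with all libraries and -0.57 (SE 0.46) without DEX+TNF 3 and 4. The high library of DEX+PBS (16.9) is kept there while that of DEX+TNF (34.2) is dropped.

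The 4 libraries with the most Cftr were also those with the most cycling cell markers (Mki67, Top2a and Cdk1). These summed to 184 CPM in DEX+TNF 4, 144 in DEX+PBS 4, 121 in PBS+TNF 4 and 68.0 in PBS+PBS 3, and to between 11.02 and 57.1 in the 12 other libraries. The 4 tuft cell markers summed to 856, 85.3, 183 and 54.8 CPM in the same 4 libraries and to 0.165 to 117 in the others. The 4 stem cell markers were also highest in these libraries, at 1825, 956, 1192 and 875 CPM, with at most 745 in the others. Enterocyte markers were at 400.3 CPM in DEX+TNF 4 and at 18.3 to 24.2 in the 3 others of these 4. Kcnn4 and Cftr had a Pearson r of 0.83 across the 16 libraries, the highest of the 36 pairs of members, as log2 CPM of libraries that share these marker differences. The part of other cells in the levels of both genes was not tested.

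**Figure D4:**
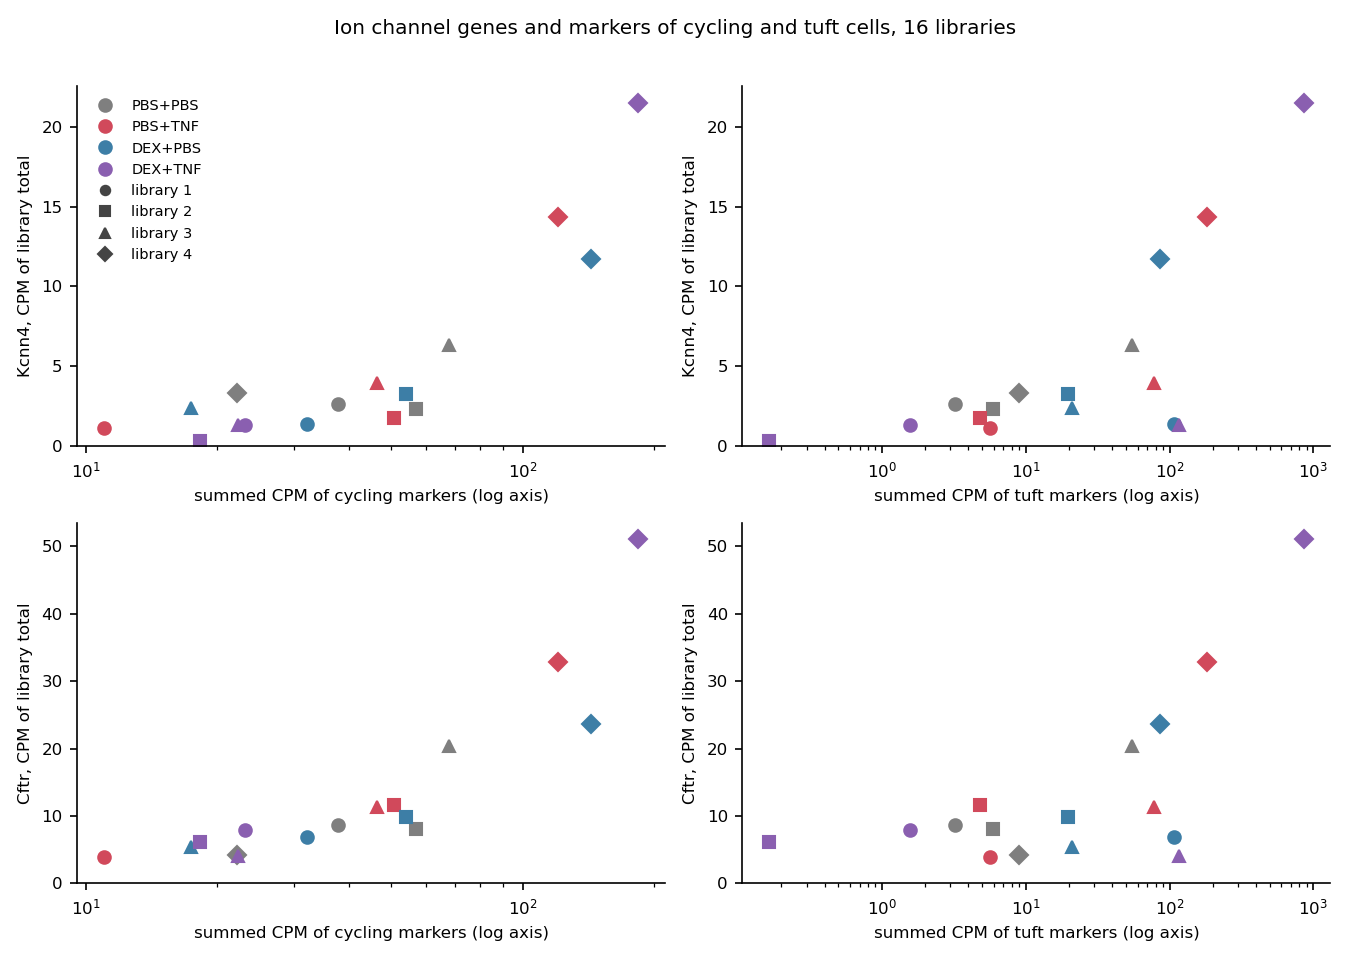
Kcnn4 (top) and Cftr (bottom), as CPM of the library total, against the summed CPM of cycling cell markers (left) and tuft cell markers (right) on log x axes. Each point is 1 of 16 libraries, coloured by group and shaped by replicate number. DEX+TNF 4 is at the top right of every panel (Kcnn4 21.5, Cftr 51.1 CPM).

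Levels of different genes are compared only per length, as normalized CPM per kilobase of merged exons. In PBS+PBS the order was Rab3d (51.1 ± 9.32), Vamp8 (15.4 ± 7.33), Rab27a (13.5 ± 1.24), Stxbp2 (7.83 ± 1.70), Rab27b (7.01 ± 1.59), Syt7 (6.95 ± 1.24), Cftr (1.28 ± 0.488), Stx3 (0.835 ± 0.122), Kcnn4 (0.513 ± 0.268) and Rab26 (0.147 ± 0.175, SD, n = 4 for each). Rab3d stood above all others. Vamp8 and Rab27a differed by less than the SD of Vamp8 and by more than that of Rab27a. Cftr and Stx3 differed by less than the SD of Cftr and by more than that of Stx3. Stxbp2, Rab27b and Syt7 differed among themselves by less than 1 SD of each. In PBS+TNF the mean of Stx3 was 2.66 per kilobase, between Cftr (1.68) and Rab27b (4.97). The place of Stx3 depended on the length used. Per kilobase of the canonical transcript Stx3 was at 4.32 in PBS+PBS, above Cftr (1.57), and at 13.8 in PBS+TNF, above Rab27b (8.25), and 5 of the 10 genes changed place in the order of the mean over groups.

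The genes around the members were described with 5 lists of the pathway: Rabs with their effectors and regulators (27 genes), SNAREs and fusion factors (25), priming factors, calcium sensors and the exocyst (30), the path from the muscarinic receptor to calcium (28) and ion transport (26). Of these 136 genes 109 were tested. Between PBS+TNF and PBS+PBS 13 were called, 10 higher and 3 lower, which is 11.9% beside 12.5% of all genes. Their median log2 fold change was below 0.01 in size, beside -0.03 over all genes. A share this near the background is not a result about the pathway, and 12 of the genes that passed are given one by one.

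Among the SNAREs and fusion factors 3 of 20 tested genes were called, all higher (list median 0.11, the same with Stx11 at its bound). Stx11, a syntaxin of immune cells, had 0 counts in all PBS+PBS libraries and 7.51, 7.72, 8.44 and 12.03 normalized CPM in PBS+TNF. This is at least 161-fold higher (against 3 counts over the group, edgeR adjusted p = 0.00283). In DEX+TNF it was at 8.39, 8.98, 0 and 0.449, so libraries 3 and 4 stood apart for this gene too. Snap23, the SNAP-25 relative of most non-neuronal cells, was at 25.7, 28.7, 23.8 and 42.6 normalized CPM in PBS+PBS and at 128, 63.7, 66.7 and 35.5 in PBS+TNF, with an overlap through PBS+PBS 4 and PBS+TNF 4. It rose by 1.28 on the log2 scale (SE 0.38, edgeR adjusted p = 0.0345) and was called in 18 of 27 alternatives (not without PBS+PBS 4 and PBS+TNF 1, 1.09, adjusted p = 0.0597). Stx6, a syntaxin of the trans-Golgi network and endosomes, rose by 1.38 (SE 0.30, edgeR adjusted p = 0.00687), from 7.20 to 9.17 CPM to 17.3 to 23.2.

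Of the priming factors, calcium sensors and exocyst genes 1 of 20 was called (list median 0.01). Unc13b, a priming factor, gave 0.17 (SE 0.26, edgeR adjusted p = 0.754). Unc13d was too low to be tested, with 12 counts over the PBS+PBS libraries.

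Of the Rab list 3 of 23 tested genes were called (list median 0.04). Rab3a, the Rab3 form of neurons and endocrine cells, was at 5.48, 5.68, 4.22 and 8.67 normalized CPM in PBS+PBS and at 0.385, 0.724, 2.46 and 1.49 in PBS+TNF. It fell by 2.16 on the log2 scale (SE 0.50, edgeR adjusted p = 0.00922). In DEX+TNF it was at 2.10, 2.02, 2.86 and 7.93. Myrip, which links Rab27 to myosin motors, fell by 1.00 on the log2 scale (SE 0.23, edgeR adjusted p = 0.00858), from 26.8 to 44.2 CPM to 12.4 to 20.4. Tbc1d10a, a GTPase-activating protein for Rab27 and other Rabs, rose by 1.54 (SE 0.35, edgeR adjusted p = 0.00811), from 3.94 to 5.40 CPM to 10.98 to 15.8. None of these 3 overlapped between the groups.

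On the path from the receptor to calcium 3 of 24 tested genes were called (list median -0.09). Orai1, the pore of store-operated calcium entry, rose by 1.70 (SE 0.39, edgeR adjusted p = 0.00945), and Orai3, its relative, fell by 0.95 on the log2 scale (SE 0.25, adjusted p = 0.0183). Prkcd, a protein kinase C, rose by 1.13 (SE 0.34, edgeR adjusted p = 0.0388). Chrm3, the muscarinic receptor of exocrine tissue, was at 25.3 to 43.0 normalized CPM in PBS+PBS and at 27.8 to 42.5 in PBS+TNF (-0.10, SE 0.23, edgeR adjusted p = 0.839). Gnaq, which couples it to phospholipase C, gave -0.28 (SE 0.24, adjusted p = 0.519), and the calcium release channel Itpr3 gave 0.23 (SE 0.32, adjusted p = 0.717).

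Of the ion transport genes 3 of 22 were called (list median -0.27). They were the potassium channel subunit Kcne3 (1.57, SE 0.46, edgeR adjusted p = 0.0339, with overlap), the sodium pump subunit Atp1b1 (1.02, SE 0.26, adjusted p = 0.0165, with overlap) and Nherf1, a scaffold that binds CFTR (0.86, SE 0.25, adjusted p = 0.0347). Slc12a2, the basolateral chloride loader, gave -0.35 (SE 0.24, edgeR adjusted p = 0.380) and the potassium channel Kcnq1 -0.10 (SE 0.72, adjusted p = 0.956). Kcnq1 was at 99.2 CPM in DEX+TNF 4 and at 6.63 to 21.5 in the other DEX+TNF libraries.

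Of the 13 calls, 6 did not outlast the loss of single libraries. The call ended when any of the 8 libraries compared was left out for Prkcd (edgeR adjusted p 0.052 to 0.112), with 7 of them for Nherf1 (all but PBS+TNF 1, 0.0558 to 0.107) and with 6 for Snap23 (all but library 4 of each group, 0.0519 to 0.1252). It ended with 5 for Kcne3 (PBS+PBS 1, 2 and 3 and PBS+TNF 1 and 3, edgeR adjusted p 0.0546 to 0.124). It ended with 4 for Orai3 (PBS+PBS 1 and 2 and PBS+TNF 2 and 4, 0.0505 to 0.0659) and with PBS+PBS 1 for Atp1b1 (0.0519). The calls of Stx11, Stx6, Rab3a, Myrip, Tbc1d10a and Orai1 held without each library in turn.

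Averaged over both pretreatments 16 of the 109 were called (14.7%, beside 15% of all genes), 10 higher and 6 lower. All 12 genes named above were among them except Kcne3 (0.80, SE 0.32, edgeR adjusted p = 0.107). Also called were Plcb4 (0.85, adjusted p = 0.0397), a phospholipase C, and, lower, the calcium sensor of the endoplasmic reticulum Stim1 (-0.62, adjusted p = 0.00795), the Rab effector Rph3al (-0.51, adjusted p = 0.0399) and the protein kinase A subunit Prkaca (-0.45, adjusted p = 0.0487), all by edgeR. Leaving out 1 library ended the call in 12 of 16 cases for Plcb4 (edgeR adjusted p up to 0.104), 12 for Prkaca (up to 0.105), 11 for Rph3al (up to 0.0889) and 10 for Orai3 (up to 0.0868), and in none for Stim1. In the other 5 contrasts 0 of the 109 were called by edgeR. An unadjusted p under 0.05 was found for 13 in DEX+TNF against PBS+TNF (1408 of all 11809 genes) and 9 in DEX+TNF against DEX+PBS (1227). It was found for 2 in DEX+PBS versus PBS+PBS (224), 4 in the interaction (642) and 13 in the averaged DEX effect (940). These were unevenly spread. Of the 22 tested ion transport genes it was found for 8 in DEX+TNF against PBS+TNF (list median 0.49, all genes 0.03). In the averaged DEX effect it was found for 6 of them (list median 0.36, all genes 0.01). Each other list held at most 2 and 3 such genes. The difference between the lists was not tested. DESeq2 called 1 of the 109 in DEX+TNF against PBS+TNF (1.14% of all genes it fitted) and 3 in DEX+TNF against DEX+PBS (1.12%). Without DEX+TNF 3 and 4 edgeR called 13 in DEX+TNF versus DEX+PBS, a setting at which 10.5% of all genes were called.

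**Figure D5:**
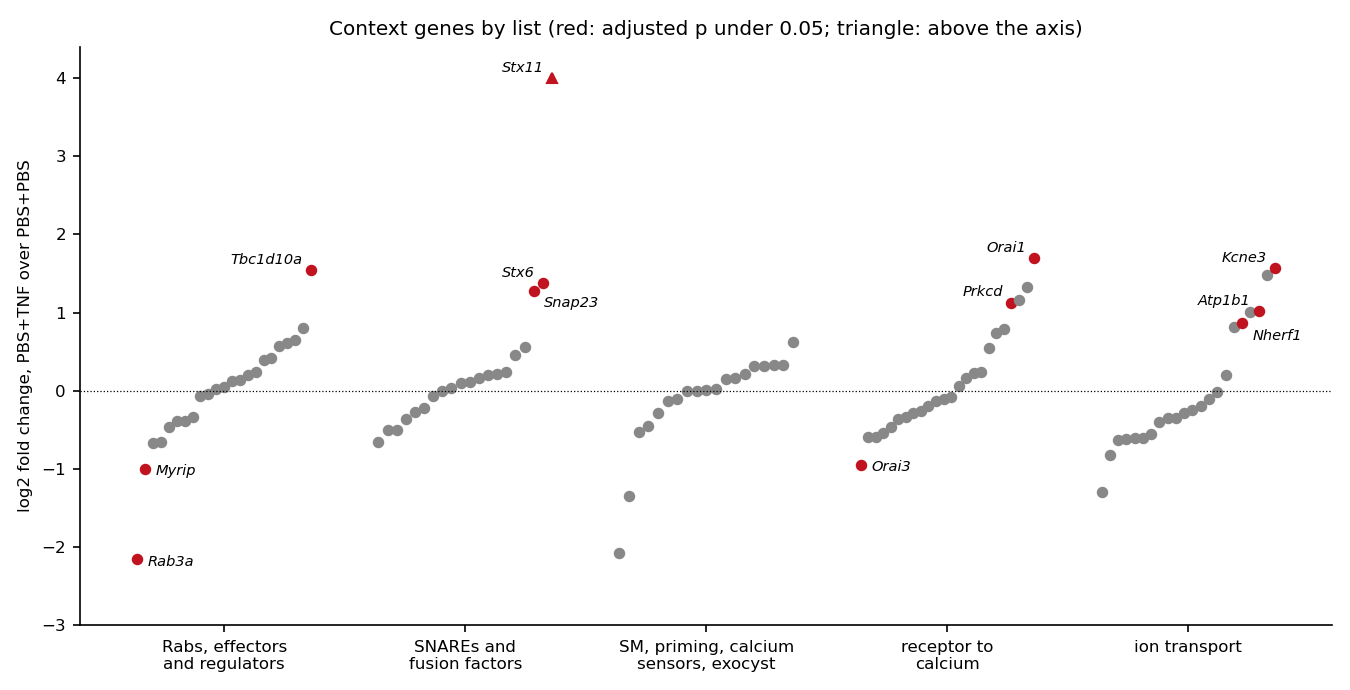
Log2 fold change of PBS+TNF over PBS+PBS for the tested genes around the members, sorted within each of the 5 lists on the x axis. Red points passed an edgeR adjusted p under 0.05 and are named (3 of them lower), grey points did not, and the triangle marks Stx11, whose fitted value lies above the axis because its PBS+PBS libraries are all at 0.

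Finally, the 3 tested genes whose log2 CPM was most like each member across the 16 libraries were sought, as a description of libraries that share depth and groups. For Stx3 they included Gm28347 (Pearson r 0.96) and Erich3 (0.95). For Rab3d they were Fam20b (0.97), Slc18a1 (0.94) and Lamp1 (0.93), and for Rab27b Galk2 (0.94), Cab39l (0.89) and Gm57857 (0.86). Vamp8 was most like Atp6v1g1, Glrx3 and Tmem242 (0.97, 0.97 and 0.96). Rab27a had the lowest leading value (Aup1, 0.82, then Ltbr, 0.77, and Gm39079, 0.76), Stxbp2 was most like Dclk2 (0.85), Zbtb17 and Eps8l1 (both 0.84), and Syt7 like Surf4 (0.88), Kpna1 and Prkaa2 (both 0.87). Kcnn4 was most like Nasp (0.94), Knstrn and Ppp1r1b (both 0.92), and Cftr like Ppp1r1b (0.91), Clca3b (0.91) and Lig1 (0.90), of which Nasp, Knstrn and Lig1 are known from dividing cells. Some of these values rested on few libraries. Without the 2 libraries furthest from the member's median, r for Rab27a was 0.64 (Aup1), 0.60 (Ltbr) and 0.53 (Gm39079). It was 0.64 for Stxbp2 with Zbtb17 and 0.72 for Cftr with Lig1. For Rab3d with Fam20b it was 0.95, and for Stxbp2 with Dclk2 0.87. Among the 36 pairs of tested members the median r was -0.16, and 3 pairs were above 0.5.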

How the data were processed

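RNA of sorted Paneth cells was sequenced in 16 libraries, 4 per injection group, from Illumina TruSeq stranded mRNA kits. The authors deposited a table of raw counts for Ensembl genes with a column for each library. The labels gave each sample's group and number. The submitters' processing notes name FastQC 0.12, STAR 2.7.10a, DESeq2 and genome mm39. The program that counted reads, its use of strand and its handling of reads that match several genes are not given in the sources used here, so overlapping and antisense genes are uncertain.

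Gene names and lengths came from GENCODE M39 on the same assembly, which held 54749 of 55414 identifiers. Genes were kept with filterByExpr, scaled by TMM and fitted with the robust quasi-likelihood method of edgeR 4.0.16 in R 4.3.3, a mean per group over all 16 libraries. P-values were adjusted by Benjamini-Hochberg over 11809 genes in each of 7 contrasts: 4 pairs, the interaction (TNF effect after DEX minus that after PBS) and the averaged TNF and DEX effects. The SE is the size of the log2 fold change divided by the square root of F. Limits from counts of 0 cover counting error only. The fit was tested on simulated data. DESeq2 1.42.0, other factors and filters, a replicate block and left-out libraries were alternatives.

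The members and lists were chosen with earlier results of these data known. The text names all members, 9 fixed genes of the lists, up to 5 called genes per list and contrast with the largest change, 3 genes most like each member, Nfkbia and the Paneth cell markers. Vamp7, 1 of the 25 SNARE genes, did not match the annotation. Some genes that these rules would name are not reported here, and 1 of them is not plotted.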

Additional observations from a re-analysis of the deposited data

Results flagged for a closer look

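In 8 of the 40 gene and group combinations 1 library lay far from the other 3 of its group (its gap to the nearest was past Dixon's critical value, which chance gives in about 1 of 20 groups). Cftr was set apart in 3 groups: it was at 15.5 normalized CPM in PBS+PBS 3, 22.8 in PBS+TNF 4 and 34.2 in DEX+TNF 4, and Kcnn4 was at 14.4 in DEX+TNF 4. These are libraries with many counts of cycling cell markers, and the part of other cells was not tested. Stx3 was at 13.7 in PBS+PBS 3 and at 17.3 in DEX+PBS 2, both above the rest of their group and below every PBS+TNF library. Rab3d was low in DEX+PBS 4 (257), and Vamp8 was high in DEX+PBS 3 (56.2). Both stood apart only after TMM scaling. As plain CPM of the library totals Rab3d was at 360.8 there (246.6 to 381.8 in DEX+PBS). Vamp8 was at 41.6 on that scale (34.45 to 46.86 in DEX+PBS).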

How the results depend on the processing

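The Stx3 call in PBS+TNF versus PBS+PBS was lost only with library totals alone (0 members called, and 2 of the lists' genes instead of 13, beside 1.93% of all genes). In DEX+TNF versus DEX+PBS 1 member was called with DESeq2 and 2 without DEX+TNF 3 and 4 (0 to 1 when 1 library was left out), and of the lists' genes 3 and 13 (0 to 4). Beside these, 1.12% and 10.5% of all genes were called. In DEX+TNF versus PBS+TNF DESeq2 called 1 of the lists' genes, beside 1.14% of all genes. For the averaged TNF effect the members called were 3 with upper-quartile factors (15.9% of all genes called) and 2 with a mean of at least 5 CPM (18.6%). They were 3 with DESeq2 (10.5%) and 2 without DEX+TNF 3 and 4 (26.3%), and 1 to 2 leaving out 1 library. Of the lists' genes 28 were called without DEX+TNF 3 and 4 and 4 with library totals (3.46%). Leaving out 1 library gave 12 to 24 of them, and 7 to 17 in PBS+TNF versus PBS+PBS. By longest transcript 2 and by canonical transcript 5 genes changed place in the order of levels. The cause of these changes was not tested. Library totals, canonical length, the lists under the same settings and leaving out PBS+PBS 4 with PBS+TNF 1 were chosen after seeing the data.

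The replicate numbers were not shown to pair the libraries: in 24 same-numbered pairs the correlation of deviations ran from -0.365 to 0.504 (median 0.115), and 12 were over 0.1. With the replicate block 1 member was called in PBS+TNF versus PBS+PBS and 1 for the averaged TNF effect, as without it, and Stx3 was 1.67 (edgeR adjusted p = 0.0012). Over all genes the block called 1482 instead of 1476 in the first, 16 instead of 40 in DEX+TNF versus PBS+TNF and 0 instead of 40 in DEX+TNF versus DEX+PBS.

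Log2 fold changes that changed sign, none of them called, were as follows. In PBS+TNF versus PBS+PBS, Rab27a was 0.00964 with median-of-ratios factors, 0.00391 without a filter, 0.0114 with DESeq2, 0.000327 without DEX+TNF 3 and 4, 0.0878 with library totals and 0.0596 without PBS+PBS 4 and PBS+TNF 1. Vamp8 was -0.0452 with upper-quartile factors, Kcnn4 -0.160 with the replicate block and Kcnq1 0.0777 with library totals. In DEX+TNF versus PBS+TNF, Vamp8 was 0.0741 with library totals and 0.251 without PBS+PBS 4 and PBS+TNF 1. There Kcnn4 was -0.000615 with DESeq2, -0.515 with the block, -2.54 without DEX+TNF 3 and 4 and -0.148 without the other pair, and Cftr was -0.207, -0.976 and -0.0879 in the last 3 of these. In DEX+TNF versus DEX+PBS, Stxbp2 was -0.0201 with upper-quartile factors, Kcnn4 -0.514 with the block, and without DEX+TNF 3 and 4 Syt7 was 0.289, Kcnn4 -2.38 and Cftr -0.570. For the averaged TNF effect Kcnn4 was -0.337 with the block and -1.10 without DEX+TNF 3 and 4, and Cftr -0.0847 without them.

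Leaving out 1 library changed a sign in these ranges. In PBS+TNF versus PBS+PBS they were -0.118 to 0.0590 (Rab27a), -0.336 to 0.426 (Vamp8), -0.638 to 0.475 (Kcnn4), -0.0184 to 0.709 (Cftr), -0.257 to 0.00845 (Chrm3), -0.0878 to 0.428 (Itpr3), -1.004 to 0.163 (Kcnq1) and -0.0568 to 0.331 (Unc13b). In DEX+TNF against PBS+TNF the ranges were -0.355 to 0.278 (Vamp8), -2.05 to 0.804 (Kcnn4) and -1.07 to 0.442 (Cftr). In DEX+TNF versus DEX+PBS they were -0.0681 to 0.396 (Vamp8), -0.379 to 0.0886 (Syt7), -1.88 to 0.862 (Kcnn4) and -0.654 to 0.840 (Cftr). For the averaged TNF effect they were -0.0893 to 0.292 (Vamp8), -0.856 to 0.514 (Kcnn4) and -0.126 to 0.620 (Cftr), and for Stx3 in DEX+PBS versus PBS+PBS -0.0682 to 0.242. Of all values of single genes under the alternatives, 1942 kept direction and side of the threshold, 116 lost a call, 44 gained one and 74 changed sign. At these depths Rab26 could not be compared.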
